A study of Saccharomyces cerevisiae with 159 samples.

Results

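The alpha factor arrest of bar1 deletion cells was followed in 12 of the 159 RNA-seq libraries of the series, which were chosen by their labels. A log-phase culture of the budding yeast strain A2589 in YEPD at 30 °C was split into 2 arms. One arm received the mating pheromone alpha factor at 5 µg/mL, followed by 2 µg/mL every 2 h, and the other received an equal volume of DMSO. Libraries were made from both arms at 0, 2, 4, 6, 8 and 9 h, with 1 library per arm and time. All 12 libraries carry the same genotype, which is MATa with bar1::HisG in the W303 background, with leu2-3, ura3 and trp1-1, with his3 and ade2, and with can1-100, GAL and psi+. Each arm is 1 culture, so every p-value below measures the spread between time points of these cultures and not the spread between independent cultures. For 1 comparison, libraries of a cdc28-13 arrest were set beside these. There strain A2587 is the WT and is labelled MATa with ade2-1, leu2-3 and ura3, with trp1-1 and his3-11,15, and with can1-100, GAL and psi+, and strain A39000 carries cdc28-13::URA3 besides these. Neither label lists a bar1 deletion, and both strains were grown at 37 °C without alpha factor. These libraries come from 2 experiments. For 1 of them, the first Bcy1 series, the study describes acetic acid in the medium and auxin added after 2 and 4 h.

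Haploid budding yeast cells of mating type a sense alpha factor with the receptor Ste2, which acts through a G protein and a MAP kinase cascade on the transcription factor Ste12. The pathway switches on genes for cell adhesion, cell fusion and nuclear fusion, and it arrests the cell cycle in G1 through Far1, an inhibitor of the G1 cyclin-dependent kinase. Bar1 is the secreted protease that degrades alpha factor, and a strain without it responds to lower doses and stays arrested for longer.

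Values are given as a level, which is log2(TPM + 1) after the TPM had been rescaled to the same total over nuclear open reading frames outside the ribosomal DNA, so that levels are per transcript length and can be set beside each other between genes. A difference is the level in alpha factor minus the level in DMSO at the same hour, and a difference of 1 is a change of 2-fold in TPM where levels are high and of more than that where they are low. BAR1 had a value above 0 in DMSO at 8 h, with a level of 0.27, and in the alpha factor arm at 0 h, with 0.08, and none elsewhere. The summed level of 7 a-specific genes was between 10.1 and 10.8 in DMSO and between 10.6 and 13.5 in the alpha factor arm, and that of 4 alpha-specific genes was between 3.72 and 7.13 over all 12 libraries, so that the libraries carry the labelled mating type. The share of rRNA in the TPM from 2 h on ranged from 18.3% to 24.7% in alpha factor and from 11.6% to 13.8% in DMSO. The 9 h alpha factor library stood apart from the rest. It had the fewest open reading frames listed at 0, which was 302, its 100 most abundant reading frames took 25.9% of the total, and its median difference from DMSO over all genes was 0.34, where the medians at the other hours were between -0.08 and 0.06. The part of these shifts in the results below was not tested. The depth of the libraries is unknown, since TPM values do not hold it, and in these bulk samples fewer cells with a transcript and less of it per cell cannot be told apart.

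The arms differed little at 0 h and strongly from 2 h on. Of 5978 genes with a mean level of at least 1, 90 differed by more than 1 at 0 h, which is 0.585% above and 0.92% below. In the pairs of 2, 4, 6, 8 and 9 h the number past 1 was 1146, 1312, 1661, 2083 and 1765. The shares above 1 in these pairs were 12.8%, 15%, 19.1%, 19.2% and 24.4%, and the shares below were 6.41%, 6.98%, 8.67%, 15.7% and 5.1%. Across genes, which are not independent replicates, the differences of any 2 of the 5 later pairs correlated with r between 0.755 and 0.888. Each pair rests on single libraries and has no replicate check.

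The question of the main comparison was which genes differed between alpha factor and DMSO over all 5 pairs from 2 h to 9 h. In limma with the hour as a block, 2023 genes were higher in alpha factor and 1488 were lower, which is 33.8% and 24.9% of the genes tested. Of these, 1870 and 1348 also had the same sign in all 5 pairs, as did 34.2% and 24.7% of all genes tested whether or not they passed. With each library centred on its median, which moves the median difference of all genes from 0.08 to -0.08, 1715 genes were higher and 2083 lower, so that the balance between the directions depends on the scaling. Measured relative to the 0 h pair, 601 were higher and 178 were lower, and among the lists below the calls that were left were 21 of 23 for mating, 40 of 62 for stress, 5 of 9 for histones, 4 of 7 for a-specific genes and 4 of 15 for phosphate. The counts for the gene lists below can be read against these background shares. The lists and their members were chosen with earlier results of these data known, so a count above a background share is not independent support.

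Of the 18 genes that carry the pheromone signal from the receptor to the nucleus, 11 rose and 2 fell, with a median difference of 0.60. When measured relative to the 0 h pair, 5 rose and 0 fell. STE2, the alpha factor receptor, had levels of 10.13, 9.82, 9.99, 10.03 and 10.47 at 2, 4, 6, 8 and 9 h in alpha factor and of 8.33, 9.00, 8.73, 8.93 and 8.71 in DMSO. The arms did not overlap, and the difference over the pairs was 1.35 ± 0.16 (SE, adjusted p = 6.27e-05). GPA1, the G protein alpha subunit, rose by 1.34 ± 0.12, and STE18, the gamma subunit, rose by 1.09 ± 0.14. Further down, FUS3, the MAP kinase of the mating response, had levels of 9.02, 9.04, 9.14, 9.13 and 9.48 in alpha factor and of 6.78, 7.13, 6.91, 7.24 and 6.93 in DMSO. Its rise of 2.16 ± 0.12 was larger than that of KSS1, the MAP kinase of filamentous growth, which was 0.81 ± 0.15. The difference between these rises was not tested. STE12, the transcription factor at the end of the pathway, rose by 0.76 ± 0.22 (adjusted p = 0.0119), and TEC1, its partner in filamentous growth, rose by 1.72 ± 0.19. The 2 inhibitors of Ste12 moved apart. DIG2 rose by 2.84 ± 0.12, whereas DIG1 fell by 0.84 (SE 0.19) and was equal in both arms at 9 h, at a level of 7.07. The fall of DIG1 did not pass relative to the 0 h pair. FAR1, which arrests the cell cycle, rose by 1.74 ± 0.14.

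Among 7 tested genes that turn the signal down, 4 rose and 1 fell, and 4 rose and 0 fell relative to the 0 h pair. SST2, which speeds up GTP hydrolysis by Gpa1, rose by 1.85 ± 0.18, MSG5, a phosphatase of Fus3, rose by 2.15 ± 0.15, and AFR1, which acts on the receptor and on the shape of the mating projection, rose by 3.31 ± 0.15. Each of these 3 genes was higher in all 5 pairs. YCK2, a casein kinase at the plasma membrane, fell by 1.23 (SE 0.18).

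Genes for agglutination, cell fusion and nuclear fusion had the largest increases. Of 23 genes, 22 rose in all 5 pairs, with a median difference of 4.45. FIG1 (YBR040W), a membrane protein of mating cells on chromosome II from 316968 to 317864, had levels of 10.82, 10.87, 10.95, 11.14 and 11.64 in alpha factor and of 1.5, 0.96, 2.20, 0.74 and 1.09 in DMSO. Its level in the 2 libraries at 0 h was 1.00 and 1.38. The difference of 9.79 ± 0.24 (adjusted p = 1.47e-09) was the largest among all genes tested. PRM1, which acts in the fusion of the plasma membranes, had levels of 10.04, 9.86, 10.06, 9.93 and 10.62 in alpha factor and of 2.13, 2.5, 2.38, 2.98 and 2.56 in DMSO. PRM3, needed for the fusion of the nuclear envelopes, rose by 8.69 ± 0.13, and PRM6, a further pheromone-regulated membrane protein, rose by 8.06 ± 0.17. These genes had reached their high level by the first time point and stayed there.

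The adhesion gene FIG2 rose by 6.84 ± 0.16 and AGA1, the anchor subunit of a-agglutinin, rose by 4.57 ± 0.22, from levels of 5.98 to 7.04 in DMSO to levels of 10.72 to 11.83. FUS1, which acts in the cell fusion zone, had levels of 9.18, 8.78, 8.68, 8.79 and 9.75 in alpha factor and of 3.94, 4.78, 4.37, 5.10 and 4.73 in DMSO. FUS2, needed for cell fusion as well, rose by 5.39 ± 0.20. KAR4, a transcription factor for genes of nuclear fusion, had levels of 10.21, 10.34, 10.59, 10.82 and 11.04 in alpha factor and of 5.50, 6.20, 5.70, 6.43 and 5.87 in DMSO. Its known targets KAR3, a kinesin, and CIK1, the partner of Kar3, rose by 3.02 ± 0.15 and 4.53 ± 0.18. The smallest rise in the list was that of KCH1, a protein for potassium influx, with 0.46 ± 0.14 (adjusted p = 0.0186). The single member that fell was PRM9, by 1.63 (SE 0.26), from levels between 3.04 and 3.80 in DMSO to levels between 1.15 and 2.98. The fall of PRM9 did not pass relative to the 0 h pair, and 28.7% of its 50-base stretches occur elsewhere in the genome. The plot of levels over time shows how little the arms overlap for these genes.

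**Figure D1:**
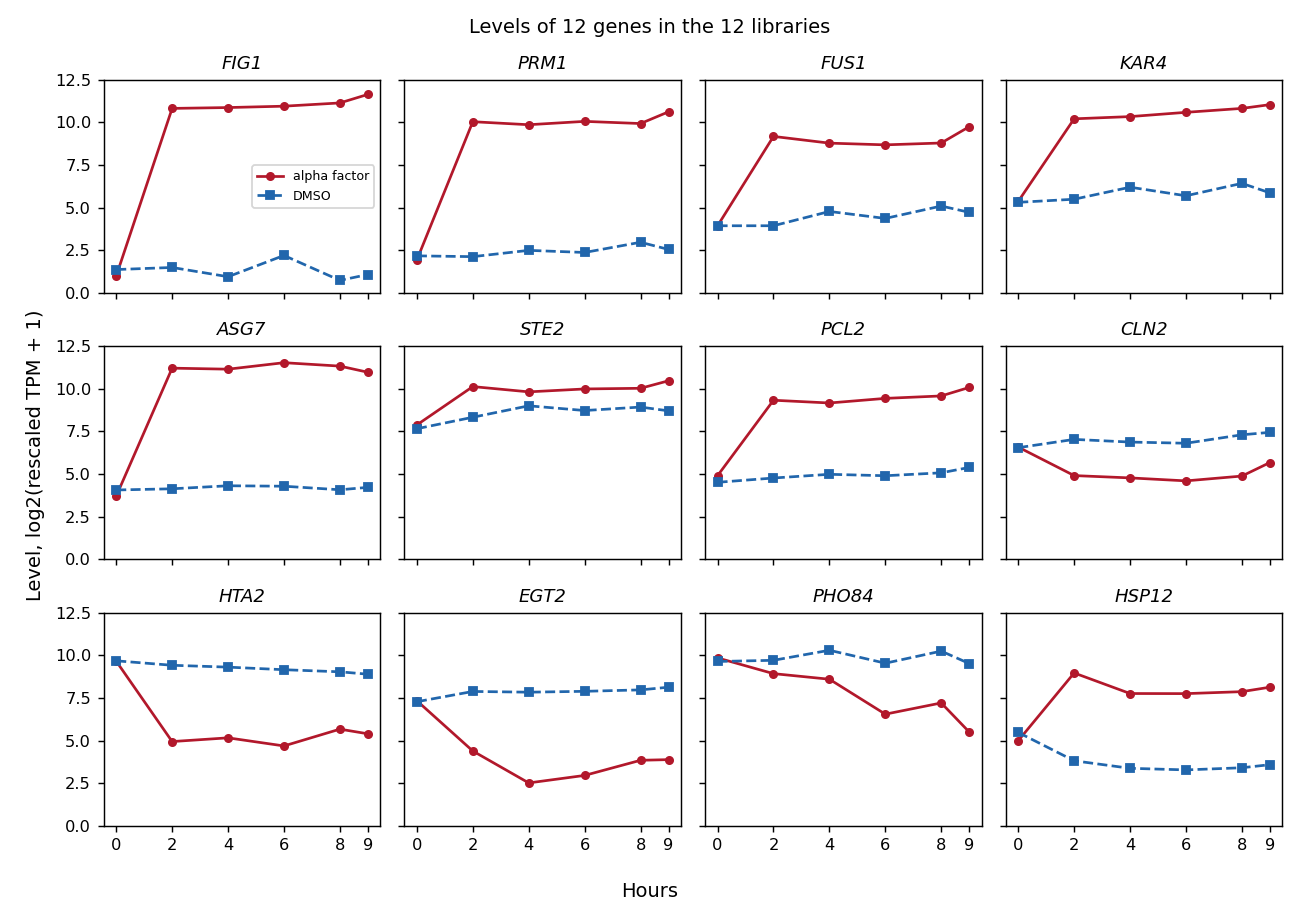
Levels on the log2(rescaled TPM + 1) scale of 12 genes against hours, with red points for alpha factor and blue squares for DMSO, 1 library per point. The arms start together at 0 h. FIG1, PRM1, FUS1, KAR4, ASG7, STE2 and PCL2 are higher in alpha factor from 2 h on, CLN2, HTA2 and EGT2 are lower, PHO84 falls further with time, and HSP12 is highest at 2 h.

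Ste12 is known to bind the pheromone response element, here searched as the letters TGAAACA on both strands in the 300 bases before the start codon of 5990 genes in the R64 genome, which is sacCer3, the build of the files. The letters were present in 7.2% of all promoters, in 52.2% of the 23 genes for agglutination and fusion and in 75% of the 8 a-specific genes. Of tested genes with 0 matches 32.7% rose and 26.2% fell, and of those with 1 match 40.9% rose and 22% fell. Of 19 tested genes with 2 or more matches, 13 rose and 6 fell, which is 68.4% and 31.6%. Those that rose include PRM1 with 3 matches, FUS2, KAR4, FUS1, FUS3 and TEC1, and those that fell include DSE2 and DSE4, which act in the separation of daughter cells. The 13 include the identical copies HMLALPHA2 and MATALPHA2, whose reads cannot be told apart. The 220 bases from 300 to 81 before the start codon are shown for 4 genes with high levels in alpha factor, to show where the element lies and that it need not be present in this exact form. The capitals mark the letters TGAAACA or their reverse complement. The sequences read 5′ to 3′ towards the gene on the plus strand and are FIG1 at chrII:316668-316887, PRM1 at chrXIV:110617-110836, FUS1 at chrIII:71503-71722 and KAR4 at chrIII:27629-27848.
FIG1: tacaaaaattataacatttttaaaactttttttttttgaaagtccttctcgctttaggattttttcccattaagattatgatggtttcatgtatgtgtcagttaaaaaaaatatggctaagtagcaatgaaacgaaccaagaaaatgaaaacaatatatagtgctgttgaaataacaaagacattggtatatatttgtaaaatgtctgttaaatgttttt
PRM1: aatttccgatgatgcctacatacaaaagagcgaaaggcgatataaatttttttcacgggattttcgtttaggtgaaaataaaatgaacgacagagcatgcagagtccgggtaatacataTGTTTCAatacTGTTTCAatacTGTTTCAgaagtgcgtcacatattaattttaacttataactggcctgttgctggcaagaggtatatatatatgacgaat
FUS1: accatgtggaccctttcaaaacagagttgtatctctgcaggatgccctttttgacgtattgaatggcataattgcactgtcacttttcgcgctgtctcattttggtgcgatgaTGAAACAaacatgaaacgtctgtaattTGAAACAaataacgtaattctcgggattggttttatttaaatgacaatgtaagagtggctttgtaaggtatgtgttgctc
KAR4: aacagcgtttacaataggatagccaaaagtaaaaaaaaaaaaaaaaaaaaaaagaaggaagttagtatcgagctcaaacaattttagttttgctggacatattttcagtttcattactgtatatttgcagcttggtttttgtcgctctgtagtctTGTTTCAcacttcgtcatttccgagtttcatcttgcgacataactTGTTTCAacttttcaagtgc
The 3 matches of PRM1 start 181, 170 and 159 bases before the start codon, those of FUS1 start at 187 and 160, and those of KAR4 at 145 and 100. FIG1, with the largest difference, has 0 matches in its 300 bases. A match is a stretch of letters and not a measured binding site, and no binding was measured here.

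Of the a-specific genes, all 7 tested genes rose, with a median difference of 2.29. MFA1, a gene for the pheromone a-factor, had levels of 9.96, 10.91, 11.06, 11.09 and 10.75 in alpha factor and of 7.34, 8.21, 7.86, 7.83 and 7.62 in DMSO. MFA2, the second a-factor gene, rose by 2.29 ± 0.15, and AXL1, a protease in a-factor maturation, rose by 1.01 ± 0.15. ASG7, which acts on the G protein after mating, had the largest rise of the list with 7.03 ± 0.12, from levels between 4.08 and 4.32 to levels between 10.97 and 11.53. STE6, the exporter of a-factor, had the smallest with 0.45 ± 0.17, and it did not pass in 8 of the 14 alternatives, among them centred libraries (adjusted p = 0.0952), no block (adjusted p = 0.159), the pairs without 6 h (adjusted p = 0.109) or without 9 h (adjusted p = 0.124), and the difference relative to the 0 h pair (adjusted p = 0.771).

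All 3 tested alpha-specific genes rose, though 0 of the 3 passed relative to the 0 h pair, and levels were low except for SAG1. SAG1, the alpha-agglutinin of the other mating type, had levels of 4.71, 4.99, 6.33, 6.52 and 6.98 in alpha factor and of 3.72, 3.89, 3.87, 4.00 and 3.99 in DMSO. The level in alpha factor was higher at each later time point, and the difference over the pairs was 2.01 ± 0.29. MF(ALPHA)2, a gene for alpha factor itself, rose by 2.42 ± 0.28 from levels between 0 and 0.78 to levels between 1.87 and 3.77. STE3, the receptor for a-factor, rose by 1.18 ± 0.33 to levels of at most 3.10. MF(ALPHA)1, the major gene for alpha factor, was not tested because its mean was under 1. It was listed at 0 in alpha factor at 8 and 9 h and reached 0.47 at 2 h. Its median over the 6 libraries of each arm, with 0 h included, was 0.42 in alpha factor and 0.86 in DMSO.

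Of 15 genes at the entry into the cell cycle, 11 fell and 2 rose, with a median difference of -0.92, and the other 2 did not pass. With the 0 h pair as the reference, 5 fell and 1 rose. CLN2 had levels of 4.92, 4.78, 4.61, 4.89 and 5.68 in alpha factor and of 7.04, 6.88, 6.81, 7.30 and 7.45 in DMSO. CLN1 fell by 3.08 (SE 0.23) and PCL1, a cyclin of the Pho85 kinase, fell by 3.32 (SE 0.26). The cyclin PCL2 went the other way, with levels of 9.33, 9.17, 9.44, 9.58 and 10.08 in alpha factor and of 4.77, 4.99, 4.91, 5.08 and 5.39 in DMSO. Its rise was 4.49 ± 0.11, beside a median of 4.45 for the mating genes. CLN3, the most upstream G1 cyclin, rose by 0.91 ± 0.12.

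Genes of the G1/S transition and of DNA synthesis fell as well, with 25 of 36 lower, and 6 of 36 relative to the 0 h pair. MCD1, a cohesin subunit, fell by 3.14 (SE 0.19), TOS4 fell by 2.95 (SE 0.19), and RNR1, a subunit of ribonucleotide reductase, fell by 2.77 (SE 0.20) with levels between 3.00 and 4.94 in alpha factor and between 6.63 and 7.32 in DMSO. The letters ACGCGT, known as the MluI cell cycle box, were present in 72.2% of these promoters and in 3.47% of all promoters. The median differences of the list in the 5 pairs were -1.0, -0.67, -0.66, -1.14 and -0.38, and those of all genes were 0.06, 0.05, 0.06, -0.08 and 0.34, so that the list and all genes were both highest at 9 h.

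Histone genes, which are known to be transcribed in S phase, had a median difference of -1.74, and 8 of 9 fell. HTA2, for histone H2A, had levels of 4.94, 5.16, 4.68, 5.67 and 5.40 in alpha factor and of 9.41, 9.30, 9.15, 9.03 and 8.89 in DMSO. HTB2, for histone H2B, fell by 3.73 (SE 0.17). The histone H3 gene HHT1 had a difference of -0.61 ± 0.30 that did not pass (adjusted p = 0.106), with a level of 7.49 at 2 h and of 9.57 and 9.71 at 6 and 8 h in alpha factor against 9.77, 9.54 and 9.59 in DMSO.

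Genes of the G2/M phase mostly fell. In the CLB2 cluster 15 of 20 were lower and 3 were higher, with a median of -1.08. Here 7 were lower and 1 was higher relative to the 0 h pair. The mitotic cyclin CLB1 fell by 2.96 (SE 0.21), SWI5, a transcription factor of late mitosis, fell by 2.75 (SE 0.18), and HOF1, a protein of the division site, fell by 2.76 (SE 0.19). DBF2, a kinase of mitotic exit, and MOB1, the partner of Dbf2, rose by 1.54 ± 0.16 and 1.06 ± 0.17. The other mitotic cyclin gene CLB2 had levels of 2.5, 3.87, 4.32, 5.00 and 5.69 in alpha factor and of 5.26, 5.53, 5.22, 6.14 and 5.73 in DMSO. The gap between the arms at 9 h was smaller than at any other hour from 2 h on, and the change between 2 h and the late hours was 2.16 (adjusted p = 0.147), which did not pass.

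Genes for the separation of daughter cells fell after a delay. Of 11 genes, 8 fell and 2 rose, and the median difference was -0.51 at 2 h and between -2.70 and -2.16 from 4 h to 9 h. EGT2, a cell wall protein, had levels of 4.39, 2.52, 2.96, 3.84 and 3.88 in alpha factor and of 7.88, 7.83, 7.88, 7.97 and 8.12 in DMSO. DSE4, a daughter-specific glucanase, fell by 4.01 (SE 0.32), and its level was 3.94 at 2 h and between 1.29 and 2.55 later. CTS1, the chitinase that opens the septum, was level with DMSO at 2 h, at 9.15 against 8.97, and lower from 4 h on. SCW11, a cell wall glucanase, rose by 0.98 ± 0.16. Of genes outside the lists, TOS6, a cell wall protein, had the largest decrease of all genes tested that fell in all 5 pairs, with -4.98 ± 0.27, from levels between 7.86 and 8.20 to levels between 1.83 and 4.01. MRH1, a membrane protein, fell by 4.12 (SE 0.25).

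**Figure D2:**
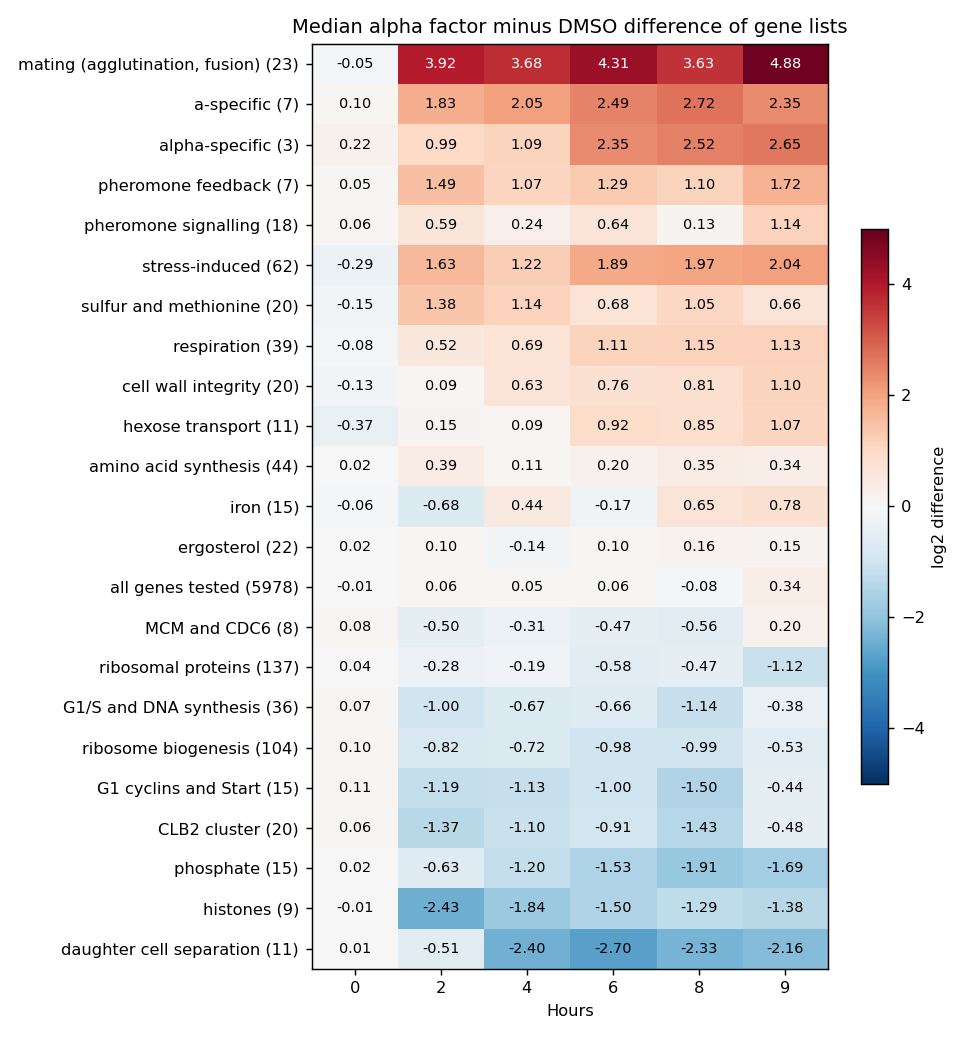
Median alpha factor minus DMSO difference on the log2 scale of 22 gene lists and of all genes tested, by hour, with the number of genes in parentheses. At 0 h the list medians lie between -0.37 and 0.22. The mating genes are between 3.63 and 4.88 from 2 h on, the daughter cell separation genes reach -2.70 at 6 h after -0.51 at 2 h, and the phosphate genes go from -0.63 at 2 h to -1.91 at 8 h.

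Transcripts of the phosphate starvation response, which the factor Pho4 switches on when phosphate is short, fell in 10 of 15 genes and rose in 0, with a median of -1.39. PHO84, the high-affinity phosphate transporter, had levels of 8.92, 8.59, 6.54, 7.20 and 5.50 in alpha factor and of 9.70, 10.29, 9.53, 10.24 and 9.51 in DMSO. SPL2, an inhibitor of low-affinity phosphate uptake, had levels of 5.86, 4.05, 2.72, 3.11 and 2.33 in alpha factor and of 6.75, 7.25, 6.49, 7.0 and 6.71 in DMSO. In both genes the level in alpha factor was highest at 2 h and lowest at 9 h, while the DMSO level showed no such trend. The acid phosphatase PHO5 fell by 3.26 (SE 0.25). PHO12 and PHO11, which share 87.2% and 88.3% of their 50-base stretches with other genome sequence so that reads may be split between them, fell by 4.39 (SE 0.27) and 3.79 (SE 0.38). The letters CACGTG, which Pho4 is known to bind, were present in 53.3% of the promoters of the list and in 3.56% of all promoters. They were also present in 40% of the promoters of 20 sulfur and methionine genes, of which 14 rose. Of genes with 0, 1 and 2 or more of these letters in their promoter, 25.9%, 25.8% and 50% fell. The shares that rose were 33.2%, 37.1% and 37.5%. The promoter of SPL2 (chrVIII:375181-375400, minus strand, 300 to 81 bases before the start codon) is shown because the gene has 3 matches and one of the steepest declines. Its matches, in capitals, start 147 and 90 bases before the start codon, and the third starts at 31 and lies outside the printed stretch.
SPL2: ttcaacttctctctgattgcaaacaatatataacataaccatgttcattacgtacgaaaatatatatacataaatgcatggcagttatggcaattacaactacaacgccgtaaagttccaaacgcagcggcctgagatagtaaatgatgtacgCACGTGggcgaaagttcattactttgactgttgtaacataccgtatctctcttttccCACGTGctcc

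Among hexose transport genes, HXT1, the low-affinity transporter of high glucose, fell by 3.05 (SE 0.17) from levels between 7.97 and 8.68 to levels between 4.96 and 5.65. HXT5, a transporter of slowly growing cells, rose by 2.56 ± 0.31. HXT6 and HXT7, which share 95.1% of their 50-base stretches with other sequence, rose by 2.91 ± 0.49 and 1.37 ± 0.36. In all, 5 of 11 genes rose and 2 fell. Genes of the citric acid cycle and the respiratory chain rose in 36 of 39 cases with 0 falls, and the median difference went from 0.52 at 2 h to 1.13 at 9 h. CIT1, the mitochondrial citrate synthase, rose by 2.07 ± 0.14, and SDH4, a subunit of succinate dehydrogenase, rose by 2.05 ± 0.20. Relative to the 0 h pair, 9 of the 39 rose. Mitochondrially encoded transcripts took between 0.0398% and 0.192% of the TPM in alpha factor and between 0.0272% and 0.0405% in DMSO.

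Genes of sulfur uptake and methionine synthesis rose in 14 of 20 cases and fell in 1. SUL1, a sulfate transporter, had levels of 5.36, 3.84, 2.44, 2.86 and 2.89 in alpha factor and between 0.64 and 1.01 in DMSO, so that it was highest at the first time point. MET28, a factor that activates the sulfur pathway, rose by 2.44 ± 0.16, and SAM1, for S-adenosylmethionine synthesis, fell by 0.72 (SE 0.13). Of 44 tested genes for amino acid synthesis under the factor Gcn4, 21 rose and 5 fell. ARG1 and HIS4, for arginine and histidine synthesis, rose by 2.39 ± 0.19 and 2.23 ± 0.12, whereas LEU9, for leucine synthesis, fell by 1.16 (SE 0.14). The ergosterol genes had 6 rises and 2 falls of 22, and with centred libraries 3 rises and 5 falls, so no direction is given for them. ERG24, for a sterol reductase, rose by 2.04 ± 0.12.

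Stress-induced genes rose in 59 of 62 cases and fell in 1. HSP12, a membrane-stabilizing heat shock protein, had levels of 8.96, 7.76, 7.75, 7.86 and 8.12 in alpha factor and of 3.81, 3.37, 3.28, 3.40 and 3.58 in DMSO. Before the pheromone its level was 4.99 and 5.47 in the 2 libraries, so that the alpha factor libraries lay above and the DMSO libraries below the level at 0 h. HSP26, a small heat shock protein, rose by 3.26 ± 0.25, and MOH1 rose by 4.62 ± 0.41, with levels of 4.82 at 2 h and 7.68 at 9 h. YGP1, a secreted glycoprotein, was the member that fell, by 1.36 (SE 0.32). The letters AGGGG, the core of the stress response element of Msn2 and Msn4, were present in 82.3% of these promoters and in 22.2% of all promoters. Of genes with 0, 1 and 2 or more of these letters in their promoter, 29%, 45.9% and 62.5% rose. The promoter of HSP12 (chrVI:106956-107175, plus strand, 300 to 81 bases before the start codon) is shown with its 2 matches in capitals. They start 232 and 190 bases before the start codon on the reverse strand, and the stretch overlaps the reading frame YFL015C.
HSP12: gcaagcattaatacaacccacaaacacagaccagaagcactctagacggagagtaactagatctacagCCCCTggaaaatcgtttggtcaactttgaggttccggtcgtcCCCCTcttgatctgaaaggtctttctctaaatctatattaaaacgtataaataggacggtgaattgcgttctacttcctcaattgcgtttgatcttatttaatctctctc

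The ribosome-related genes moved in the other direction. Of 104 genes for ribosome biogenesis 95 fell and 0 rose, with a median of -0.81. UTP30 fell by 1.72 (SE 0.14) to levels between 3.94 and 4.77 from levels between 6.04 and 6.46. The letters GATGAG, part of the PAC element, were present in 91.3% of these promoters and in 19.1% of all promoters. Of genes with 0, 1 and 2 or more such matches 22.6%, 36.4% and 59.9% fell. Of 137 ribosomal protein genes 91 fell and 0 rose, with a median of -0.55, and RPL40B fell by 1.38 (SE 0.20), from levels between 11.05 and 11.13 to 10.52 at 2 h and 8.96 at 9 h. Relative to the 0 h pair, 28 of the ribosome biogenesis genes and 2 of the ribosomal protein genes fell. Many ribosomal protein genes exist as near-identical pairs, between which the assignment of reads is uncertain.

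**Figure D3:**
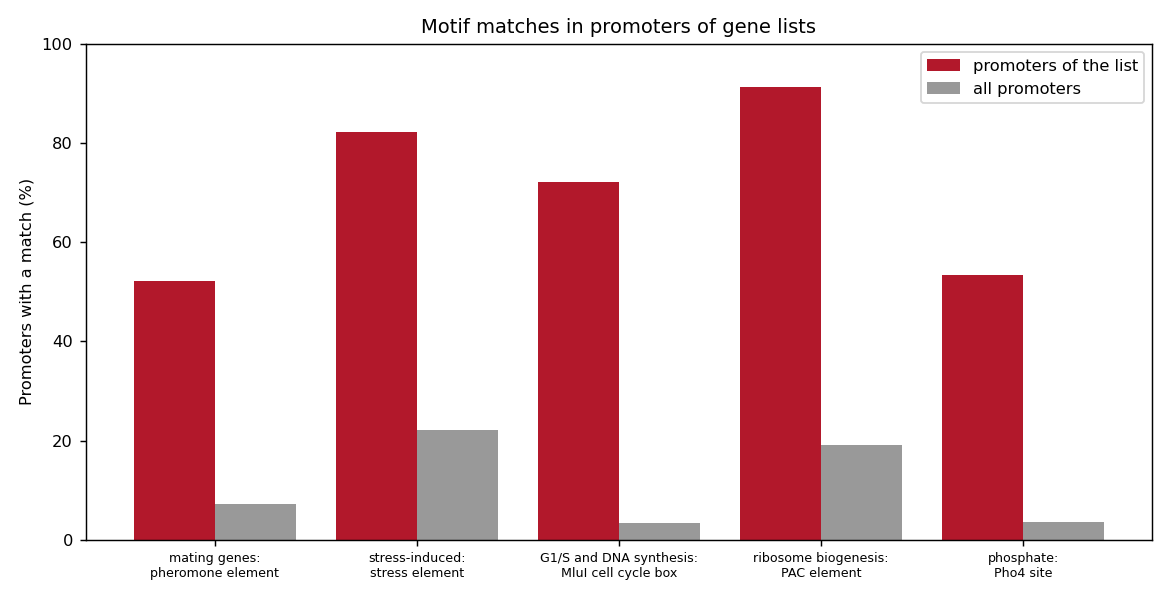
Percent of promoters, taken as the 300 bases before the start codon, that hold at least 1 match to a known motif in 5 gene lists (red) and in all 5990 promoters (grey). The list share is above the share of all promoters in each of the 5 pairs, for example 82.3% against 22.2% for the stress element and 52.2% against 7.2% for the pheromone element.

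In the cell wall integrity list 11 of 20 genes rose and 5 fell, with a median of 0.57. SLT2, the MAP kinase of the pathway, rose by 1.51 ± 0.18. GSC2, an alternative subunit of glucan synthase, rose by 4.43 ± 0.16, from levels between 3.70 and 4.44 to levels between 8.02 and 9.08. The wall sensor MID2 rose by 2.09 ± 0.24, and CWP1, a cell wall mannoprotein, fell by 1.28 (SE 0.14).

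Large increases were also found for genes outside the pheromone lists. IME4, the methyltransferase gene of meiosis, was listed between 7.33 and 8.52 in alpha factor and between 0.15 and 0.41 in DMSO, but it overlaps the non-coding RNA YNCG0006C on the opposite strand, and whether the counting used the strand is not given in the sources used here. YCL074W, which the annotation gives as a pseudogene, had levels between 7.45 and 8.65 in alpha factor and was listed at 0 in DMSO at each of these hours except 6 h, with 0.51. YCL075W had levels between 6.29 and 8.04 and was listed at 0 in DMSO from 2 h on. YGR109W-B, of which 65% of the 50-base stretches occur elsewhere in the genome, rose by 6.05 ± 0.18. YIL080W rose by 7.30 ± 0.18, but it is not in the R64 annotation used here, so its overlaps and copies were not checked. SPO11, the endonuclease of meiotic recombination with 2 matches to the pheromone element, rose by 5.30 (SE 0.39).

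The second comparison asked whether the response at 8 and 9 h differed from that at 2 h. In limma 51 genes passed the test of the change, which is the mean difference at 8 and 9 h minus that at 2 h, and of these 36 were above 0 (0.602%) and 15 below (0.251%). FIG1 had a change of 1.16 (adjusted p = 0.391) and FUS1 one of -0.88 (adjusted p = 0.628), and neither passed. The spread behind this test has 2 residual degrees of freedom and the single 2 h pair is assumed to vary like the others. Without the 8 h pair 1 gene passed and without the 9 h pair 4 did. With no filter or with no trend in the variance 0 genes passed in limma, where 625 and 535 had an unadjusted p under 0.05, and with a pseudocount of 0.1 the count was 22. The genes below are therefore given by their values.

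The phosphate genes stood out among those with a change below 0, with 6 of 15 called. Of all 15 genes called below 0, 1 was still called without the 8 h pair and 1 without the 9 h pair. At most 1 of the phosphate calls therefore held in each case. The difference for PHO84 went from -0.78 at 2 h to -3.04 and -4.01 at the late hours, a change of -2.74 (SE 0.51, adjusted p = 0.0281). The difference for SPL2 went from -0.89 at 2 h to -3.90 and -4.38, a change of -3.24 (adjusted p = 0.0135), and VTC3, for polyphosphate synthesis, had a change of -2.39. PHO89, a sodium-coupled phosphate transporter, had levels of 8.46, 7.01, 5.40, 5.50 and 3.93 in alpha factor and of 6.33, 6.24, 4.25, 6.09 and 4.81 in DMSO. It was thus higher than DMSO at 2 h and lower at 8 and 9 h. ARO10 and ARO9, which act in the breakdown of aromatic amino acids, had levels of 7.25 and 6.74 at 2 h in alpha factor, above the 3.92 and 4.90 of DMSO, and levels from 4.08 to 4.79 at all later hours. DSE2 and DSE1, of the daughter cell genes, had changes of -2.51 and -2.36.

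Among the lists, 3 of 20 cell wall integrity genes, 6 of 15 iron genes and 2 of 9 histone genes passed with a change above 0, and 0 in each of these lists passed without the 8 h pair or without the 9 h pair. PIR3, a cell wall protein, had levels of 6.45, 7.60, 8.83, 8.23 and 8.41 in alpha factor and of 4.26, 3.24, 3.02, 2.66 and 2.58 in DMSO, and a change of 3.51 (adjusted p = 0.0149). RRT1 had a change of 3.29 (adjusted p = 0.036), with levels in alpha factor from 4.17 at 2 h to 7.03 at 9 h, with DMSO between 0.89 and 1.61. RRT1 starts at base 127299 of chromosome II, shortly after MOH1 ends at 127244 on the same strand. MOH1 was also higher at 9 h than at 2 h in alpha factor. Whether transcripts of MOH1 add to the value of RRT1 was not tested. BSC4, listed between 0.34 and 1.17 in DMSO, had levels from 0.97 at 2 h to 5.51 at 9 h in alpha factor. HPF1, a mannoprotein, was below DMSO at 2 h, at 1.46 against 4.50, and above it at 9 h, at 3.90 against 3.23.

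Of 15 iron genes 6 passed, all with a change above 0, and the median change of the list was 1.86. FET3, the multicopper oxidase of iron uptake, had levels of 6.67, 8.06, 8.88, 9.28 and 8.86 in alpha factor and of 8.98, 7.92, 8.85, 8.48 and 8.37 in DMSO, and a change of 2.95 (adjusted p = 0.00411). FTR1, the permease that works with Fet3, had a change of 2.00 and HMX1, a heme oxygenase, one of 2.30. In DMSO the siderophore-binding protein gene FIT2 stood at 7.40 at 2 h and 8.33 at 6 h and between 5.07 and 5.96 at the other later hours, so that the control moved too. The histone genes HHF1 and HHT1 had changes of 2.40 and 2.28, and their levels in alpha factor were lowest at 2 h. The largest changes below 0, those of YPR137C-B and YPR158C-C, belong to reading frames of which 100% and 90.2% of 50-base stretches occur elsewhere in the genome, and among those above 0 the share was 88.6% for YAR068W and 77.1% for SNZ3, so that their reads may come from other copies.

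**Figure D4:**
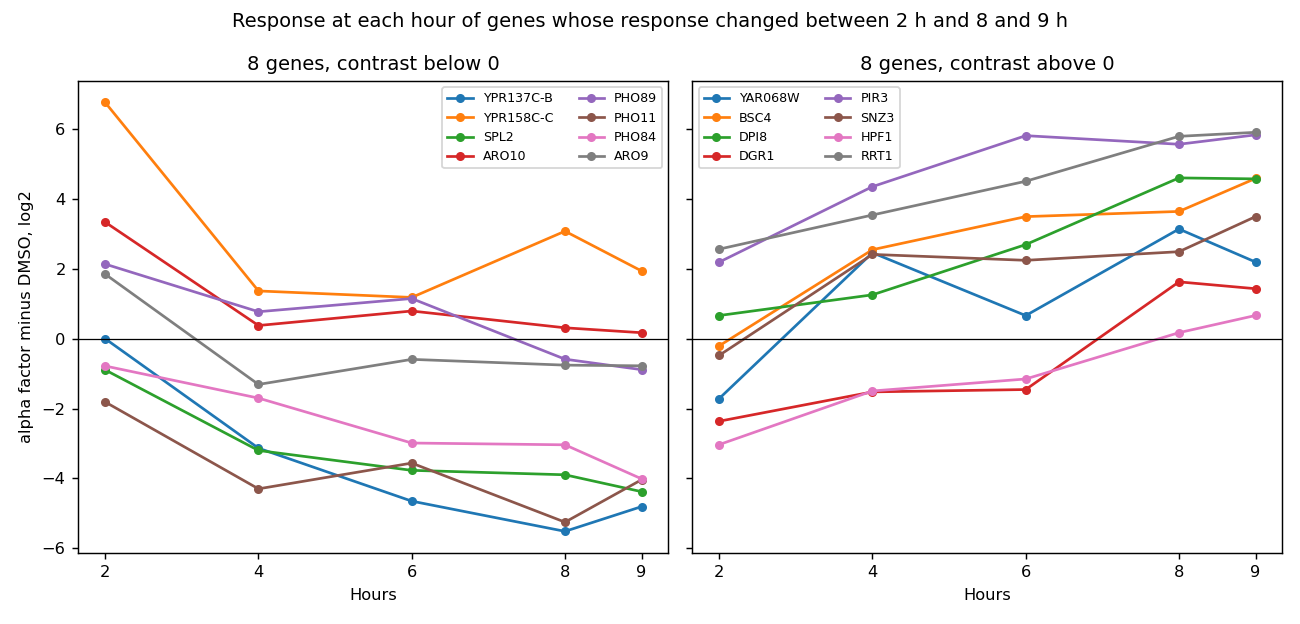
Alpha factor minus DMSO difference on the log2 scale at 2, 4, 6, 8 and 9 h for the 8 genes with the largest change below 0 (left) and above 0 (right) among genes that passed the test. PHO84 and SPL2 start at -0.78 and -0.89 and end at -4.01 and -4.38, ARO10 falls from 3.34 at 2 h to 0.38 at 4 h, and PIR3 and RRT1 start at 2.19 and 2.56 and end at 5.83 and 5.91.

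The third comparison set the alpha factor arrest beside the arrest of cdc28-13, a temperature-sensitive mutant of the cyclin-dependent kinase that also stops in G1 at 37 °C, at 2, 4 and 6 h. The planned partner was 1 library each of cdc28-13 and WT per hour from the first Bcy1 series. The WT libraries of that series go against their label MATa. Their STE2 level was between 2.52 and 3.00 and their MFA1 level between 1.84 and 2.79, where the cdc28-13 libraries had 8.43 to 9.25 and 8.46 to 10.5. The alpha factor gene MF(ALPHA)1 was between 10.4 and 11.1 and STE3 between 7.49 and 7.73 in these libraries labelled WT. Against this partner 614 genes had a higher and 1004 a lower response to alpha factor (10.2% and 16.6% of 6047 tested), and without the 4 h pairs the total fell to 107. The lowest values include STE2 with -4.88 and HMRA1 with -5.90, and the highest include MF(ALPHA)2 with 6.70, which cannot be told apart from the mating type of those libraries. In the replicated cdc28-13 experiment both strains express a-specific genes, with a summed level of 7.95 to 11.3 over all its hours. The summed level of 4 alpha-specific genes was 3.5 to 6.08 in its WT and 5.3 to 8.16 in its cdc28-13 libraries. In that experiment 3 WT libraries per hour and 1 to 3 cdc28-13 libraries stand behind each mean. Against it 38 genes were higher and 16 were lower (0.609% and 0.256% of 6240 tested). The experiments also differ in temperature and strain. Per the study's text, RNA selection differs for the replicated experiment, and auxin was added in the first Bcy1 series. In the replicated experiment at these hours the rRNA share was 75.7% to 78.1%, with 893 to 1147 reading frames listed at 0. The 12 alpha factor and DMSO libraries had 11.6% to 24.7% and 302 to 491. The part of these differences in the result was not tested. STE2 and HMRA1 had differences of 0.99 and 0.35 against the replicated experiment, opposite in sign to those against the first Bcy1 series, and neither passed.

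Against the replicated experiment 13 of the 23 mating genes had a larger response to alpha factor, with a median of 3.43, and 0 had a smaller one. FIG1 differed by 8.85 (adjusted p = 0.00295), PRM1 by 8.43, PRM6 by 7.79, PRM3 by 7.20 and KAR4 by 3.85. Against the Bcy1 series 19 of the 23 were higher. Against the replicated experiment PCL2 differed by 5.08, whereas CLN1 and CLN2 had differences of -3.66 (adjusted p = 0.0434) and -2.14 (adjusted p = 0.018). The cdc28-13 effect on CLN2 itself was -0.18, -0.06 and 0.22 at 2, 4 and 6 h, and that on CLN1 was -0.48, 1.17 and 0.35, while both were lower in alpha factor at these hours. The membrane protein gene MRH1 had -3.31. Of the 9 histone genes and of the 36 genes of DNA synthesis 0 passed in either direction against the replicated experiment, where the median histone effect of cdc28-13 itself was -2.0, -1.66 and -1.04 at 2, 4 and 6 h. Of the 62 stress-induced genes and the 104 ribosome biogenesis genes 0 passed as well, with medians of -0.14 and -0.11. Against the first Bcy1 series 14 stress-induced genes had a higher and 2 a lower response (median 0.60), 67 of the ribosome biogenesis genes were lower (median -0.93), and 16 of the DNA synthesis genes were lower. With these few libraries this does not show that the 2 arrests act alike on them.

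**Figure D5:**
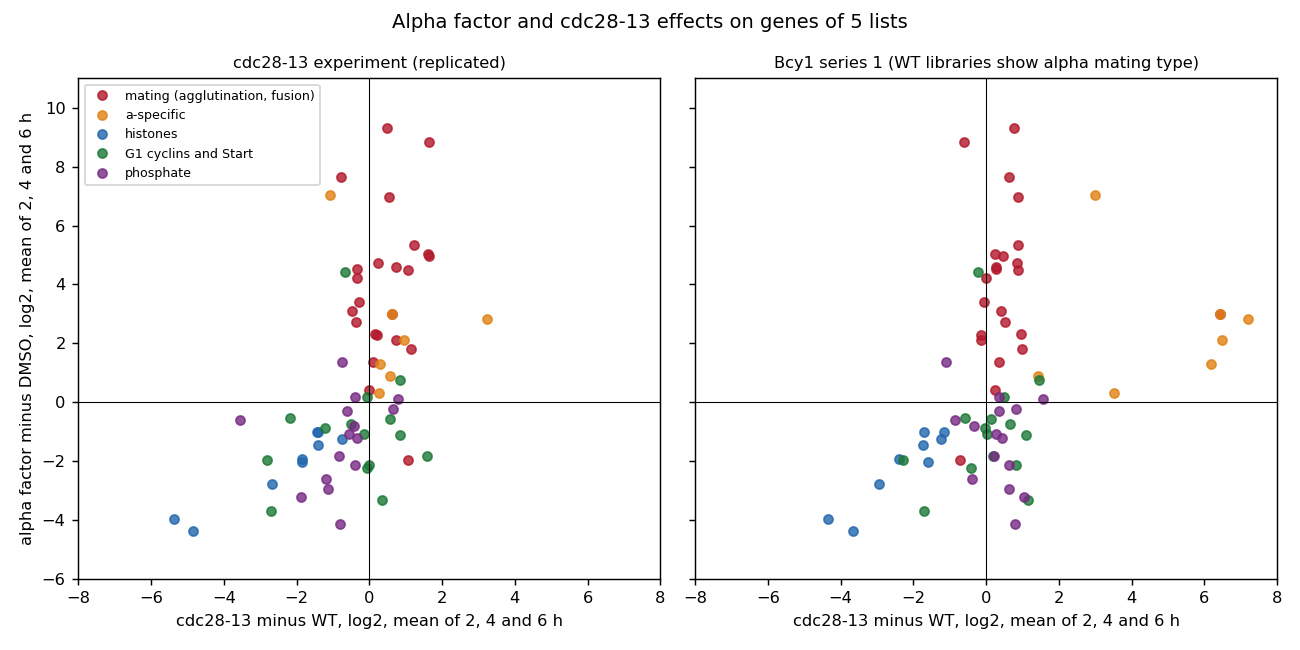
Alpha factor effect (vertical axis) against the cdc28-13 effect (horizontal axis), both on the log2 scale as means of 2, 4 and 6 h, for genes of 5 lists, with the replicated cdc28-13 experiment on the left and the first Bcy1 series on the right. Most mating genes are high on the vertical axis and closer to 0 on the horizontal one, histone genes are below 0 on both, and most a-specific genes lie further right in the right panel, where the WT libraries express alpha-specific genes.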

How the data were processed

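The labels give total RNA for the 12 libraries, whereas the study's methods give mRNA enrichment for them and total RNA for the cdc28-13 arrest. The rRNA share was between 11.6% and 24.7% in the 12 libraries. It was between 75.7% and 78.1% in the replicated cdc28-13 experiment at 2, 4 and 6 h. Which applies to the 12 libraries, and so what their rRNA shares mean, was not tested beyond these values. The authors deposited log2(TPM + 1) values per gene, made with STAR 2.5.3a and RSEM 1.3.0 on sacCer3 per the labels. These values were turned back into TPM, 7 reading frames in the ribosomal DNA were left out, the other 6678 nuclear reading frames were rescaled to a total of 1000000 and log2(value + 1) was taken. Genes with a mean of at least 1 were tested with limma 3.58.1 (R 4.3.3) with a variance trend, the hour as a block and Benjamini-Hochberg adjustment at 0.05. Same-hour libraries pair because both arms came from a culture split at the start. The third comparison averaged replicates per strain and hour. Genes were named from fixed lists, from the largest changes and from the promoter search, and the members and lists were chosen with earlier results of these data known. Promoters were read from R64. Simulated data had 100 genes changed by a log2 of 1 and 100 by 2. Their noise was independent with the fitted spread, and no whole library was shifted, unlike the 9 h library here. The first comparison recovered 92 to 93 and 99 to 100, the second 7 to 20 and 61 to 72, and the third 29 to 39 and 86 to 92. Alternatives were centring, no rescaling, other filters and pseudocounts, no trend, no block and leaving out each pair. The result of 1 member of the DNA synthesis list is not reported here.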

Additional observations from a re-analysis of the deposited data

Results flagged for a closer look

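The response to alpha factor differed between 2 h and the late hours for 51 genes by the test of that change. The largest changes above 0 were 4.38 for YAR068W, 4.32 for BSC4, 3.92 for DPI8, 3.89 for DGR1, 3.51 for PIR3, 3.47 for SNZ3, 3.45 for HPF1 and 3.29 for RRT1. The largest below 0 were -5.16 for YPR137C-B, -4.25 for YPR158C-C, -3.24 for SPL2, -3.09 for ARO10, -2.87 for PHO89, -2.83 for PHO11, -2.74 for PHO84 and -2.62 for ARO9. All of these rest on 1 pair at 2 h. The effects of alpha factor and of cdc28-13 differed for 1618 genes against the first Bcy1 series, whose WT libraries express genes of the other mating type, and for 54 genes against the replicated experiment. Outside the gene comparisons, rRNA took at least 18.3% of the TPM in each alpha factor library from 2 h on, and at most 13.8% in DMSO at these hours.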

How the results depend on the processing

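The first comparison called 3511 genes and between 2855 and 3456 when 1 pair was left out. Without the replicate block, that is, without the pairing by hour, it called 2952, and relative to the 0 h pair 779. The deposited values without rescaling gave 1597 higher and 2073 lower, beside 2023 and 1488, and centred libraries 1715 and 2083. Of 106 genes named for it, 38 values over the alternatives no longer passed, 1 newly passed and 0 changed sign. The second comparison called 51 genes and between 1 and 64 with 1 pair left out. It called 87 with centred libraries, 22 with a pseudocount of 0.1, and 0 with no filter or no variance trend (625 and 535 at an unadjusted p under 0.05). Of 28 genes named for it, 112 values no longer passed and 0 changed sign. The third comparison called 1618 genes and between 107 and 1297 with 1 pair left out. It called 957 without the replicate block, 54 against the replicated cdc28-13 experiment at 2, 4 and 6 h and 339 at all its times. Centred libraries gave 729 higher and 875 lower, beside 614 and 1004. STE2 turned from -4.88 to 0.99 and 1.65 in those replicated comparisons, and HMRA1 from -5.90 to 0.35 and 0.30. The cause was not tested. With 1 library per arm and hour and no depth kept in TPM, small changes of low genes cannot be resolved.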
